A study of Mus musculus with 15 samples.

Results

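Primary astrocytes from mouse brain that received ginsenoside Rg1 and then lipopolysaccharide (LPS) were compared with untreated primary astrocytes by RNA sequencing of polyadenylated RNA. The comparison took 10 of the 15 libraries of the study, 5 titled as Rg1 and 5 titled as control, and was chosen by those titles alone. The Rg1 plus LPS cultures had 80 µM Rg1 for 12 h before 1 µg/mL LPS for 6 to 8 h. The control cultures had neither agent. A further 5 libraries, which the submitters labelled SCI, had the same LPS exposure without Rg1, and their levels are given beside the others as a description. Rg1 was never given alone among these samples, so what Rg1 and what LPS did to the difference from control cannot be told apart. Levels of both treated groups are read against the same 5 control libraries. The treatment field of the Rg1 plus LPS libraries runs from Rg1 to Rg5, whereas the titles and the series' design describe 5 repeats of 1 treatment, and the titles were followed. The labels name no strain, age or sex of the mice. Whether the repeats were separate cultures or mice is not stated, and the p-values thus rest on a spread that may be technical.

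Astrocytes are the glial cells that take up glutamate and potassium, supply neurons with metabolites and become reactive after injury. LPS, a component of the outer membrane of Gram-negative bacteria, binds CD14 and TLR4 and signals through MyD88 to the transcription factor NF-kB, which induces chemokines, cytokines and its own inhibitors. Growth factors, calcium and cyclic AMP signal through kinases to a first wave of transcription factors, the immediate early genes of the FOS, EGR and NR4A families. Ginsenoside Rg1 is a triterpenoid saponin of ginseng.

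The total counts of the 10 libraries ran from 34.3 M to 41.1 M. Expression values below are CPM, counts scaled to a common library size with TMM factors. Astrocyte markers were abundant in all 10 libraries: Gfap, the intermediate filament of astrocytes, had a mean of 492 FPKM, a value scaled to gene length, and Aldoc one of 952 FPKM. The libraries of the 2 groups lay apart on the first principal component, which held 42.3% of the variance. On the second component, with 21% of the variance, Rg1 plus LPS libraries 1 and 4 lay at 44.2 and 25.01 and libraries 2, 3 and 5 between -35.5 and -21.4. The median SD of log2 CPM between replicates was 0.17 in the Rg1 plus LPS group and 0.0954 in the control group. Mitochondrially encoded genes took 3.99%, 4.48%, 4.07%, 4.98% and 2.77% of counts in Rg1 plus LPS libraries 1 to 5, and 2.49% to 2.80% in the control libraries.

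Of 15362 genes with enough counts, 5671 (36.9%) differed between Rg1 plus LPS and control at an adjusted p under 0.05, by the two-sided quasi-likelihood F-test of edgeR with Benjamini-Hochberg adjustment over all genes. These are the genes called below, 2884 (18.8%) of them higher and 2787 (18.1%) lower in Rg1 plus LPS. Counts of called list members below are to be read against these shares, and several lists lay near or under them. The larger changes were more often decreases. A change of at least 2-fold was called for 284 genes higher (1.85%) and 494 lower (3.22%), one of at least 4-fold for 31 higher and 104 lower, and one of at least 8-fold for 12 higher and 24 lower. The median log2 fold change of all genes was 0.01. The CPM values of the groups did not overlap for 4025 genes (26.2%), with Rg1 plus LPS higher for 2029 (13.2%) and lower for 1996 (13%). A lack of overlap named below is to be read against that share. With libraries scaled to their total counts alone, 63.9% of the called genes were higher, against 50.9% with TMM scaling. Changes also followed gene length: the median log2 fold change was 0.18 in the 25% of genes with the shortest transcripts and -0.18 in the 25% with the longest.

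**Figure D1:**
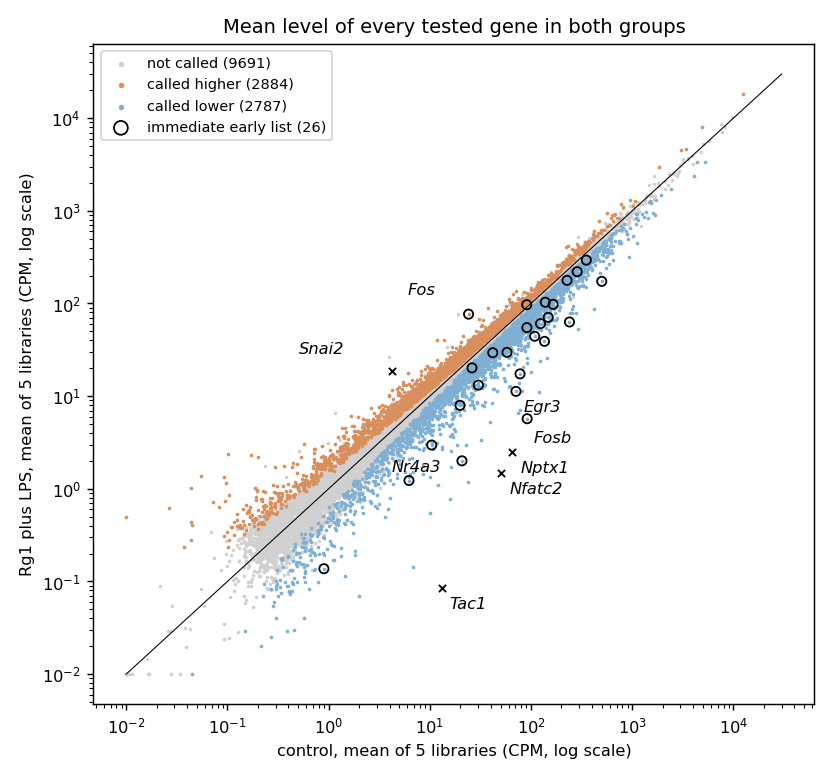
Mean CPM of each of the 15362 tested genes in the 5 control libraries (x axis) and the 5 Rg1 plus LPS libraries (y axis), both on log scales, with means under 0.01 CPM drawn at 0.01. Points under the diagonal were lower in Rg1 plus LPS, and of the 26 circled immediate early genes 24 lie under it while Fos and Ier3 lie above it.

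Among genes that averaged 5 CPM or more over the 10 libraries and showed no overlap between the groups, the deepest decrease was that of Tac1, the precursor of the neuropeptide substance P (chr6:7555061-7562978, GRCm38.p6, as are all positions below). Tac1 stood at 13.7, 9.95, 10.8, 17.2 and 13.8 CPM in the control libraries and at 0, 0.0248, 0.148, 0.133 and 0.119 CPM in the Rg1 plus LPS libraries. The transcript was thus close to absent in every treated library, at a log2 fold change of -7.22 ± 0.49 (SE, n = 5 per group, adjusted p = 4.67e-08). LPS libraries averaged 1.497 ± 0.889 CPM (SD). Nfatc2 (chr2:168476410-168601657), a transcription factor that calcineurin sends to the nucleus, fell from 46.7 to 55.0 CPM in control to 1.02 to 1.93 CPM, a log2 fold change of -5.10 ± 0.18 (adjusted p = 1.52e-11). Nptx1 (chr11:119538719-119547820), a secreted pentraxin that clusters glutamate receptors at synapses, fell from 36.3 to 104.7 CPM to 2.32 to 2.61 CPM, by 4.71 on the log2 scale (adjusted p = 2.42e-09). The neurofilament genes Nefm and Nefl fell by 3.44 and 3.25, and Bsn, a scaffold protein of the presynaptic zone, by 2.97. The other genes with the deepest decreases were Ahrr, Tnfsf15, Fosb, Cyp1a1, Areg and Nr4a3, which are described with their groups, and Fam110c, Tbc1d30 and Slc26a2, a sulfate transporter. Slc26a2 went from 39.0 ± 2.92 CPM to 5.31 ± 0.869 CPM (SD, n = 5 each).

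Increases by the same rule were smaller. Snai2 (chr16:14705852-14709395), a zinc finger repressor of epithelial genes, stood at 9.66, 27.1, 17.4, 16.6 and 23.4 CPM in the Rg1 plus LPS libraries and at 3.03 to 5.99 CPM in control. The lack of overlap was part of the rule, and the log2 fold change was 2.16 ± 0.27 (adjusted p = 2.21e-05). Atoh8, a basic helix-loop-helix factor, rose by 1.54 on the log2 scale, and Klf15, a Krüppel-like factor that glucocorticoids induce, by 1.35. Klf15 averaged 12.0 ± 2.57 CPM in Rg1 plus LPS, 4.71 ± 1.27 CPM in control and 2.20 ± 0.845 CPM in the LPS libraries. Gadd45g, a growth arrest gene, rose from 38.0 ± 6.69 to 89.7 ± 11.7 CPM. Kmt5c, a histone H4 lysine methyltransferase, Gins3, a subunit of the replicative helicase, Shfl, an antiviral inhibitor of ribosomal frameshifting, Lime1, Rasl11b, Zbtb40, Banp and the noncoding Snhg20 rose by 1.17 to 1.51 on the log2 scale.

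Among abundant transcripts the decreases led. Per length, the most abundant genes with a change of at least 2-fold were Emp1, Rasl11a, Slc20a1, Sgk1, Lyz2, Noct, Hbegf and Vcl, and all 8 fell. Noct, a phosphatase with circadian expression, went from 363 to 479 CPM in control to 81.0 to 97.8 CPM in Rg1 plus LPS, a log2 fold change of -2.26 ± 0.09 (adjusted p = 2.47e-11). Its mean in the LPS libraries was 558 ± 34.2 CPM (SD). Vcl, vinculin of focal adhesions, went from 1116 ± 76.9 to 450 ± 51.7 CPM, and Slc20a1, a phosphate transporter, from 930 ± 206 to 315 ± 96.0 CPM. Lyz2, lysozyme of myeloid cells, fell by 1.36 on the log2 scale, and by 0.76 without control library 4, which held 331 CPM of it against 82.7 to 104.5 CPM in the other controls.

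Immediate early genes had the highest share of decreases among the lists examined. Of 26 members tested, 23 were called lower and 1 higher, against 18.1% and 18.8% of all genes, and their median log2 fold change was -1.13 against 0.01 for all genes. Fosb (chr7:19302696-19310118), an AP-1 subunit, stood at 93.1, 88.1, 69.2, 102.8 and 105.3 CPM in the control libraries and at 13.8, 2.63, 3.88, 5.59 and 2.62 CPM in the Rg1 plus LPS libraries. The lowest control was thus well above the highest treated library, library 1, and the log2 fold change was -4.00 ± 0.39 (adjusted p = 2.24e-06), or -4.64 without that library. Egr3 (chr14:70077317-70082613), a zinc finger factor, had 76.9, 51.8, 58.5, 73.7 and 94.4 CPM in control and 6.79, 18.6, 11.6, 8.81 and 10.5 CPM in Rg1 plus LPS, again with no overlap (log2 fold change -2.66 ± 0.23, adjusted p = 7.68e-07). Nr4a3 (chr4:48045078-48086447), an orphan nuclear receptor, fell from 20.8 ± 6.69 CPM to 2.00 ± 0.665 CPM. Fosl2 and Maff, a further AP-1 subunit and a small MAF protein, fell by 1.53 and 1.93 on the log2 scale. Jun and Ier3 were not called, at log2 fold changes of -0.26 and 0.10.

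Fos was the exception. Fos (chr12:85473890-85477274), the partner of JUN in AP-1, had 119, 74.2, 83.6, 56.8 and 50.3 CPM in the Rg1 plus LPS libraries and 23.8, 23.8, 19.9, 30.2 and 23.1 CPM in control. Every treated library was above every control, at a log2 fold change of 1.67 ± 0.21 (adjusted p = 2.78e-05). In the LPS libraries Fos averaged 45.3 ± 10.3 CPM, while Fosb averaged 2.21 ± 0.674 CPM, Egr3 27.1 ± 4.47 CPM and Nr4a3 17.7 CPM.

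**Figure D2:**
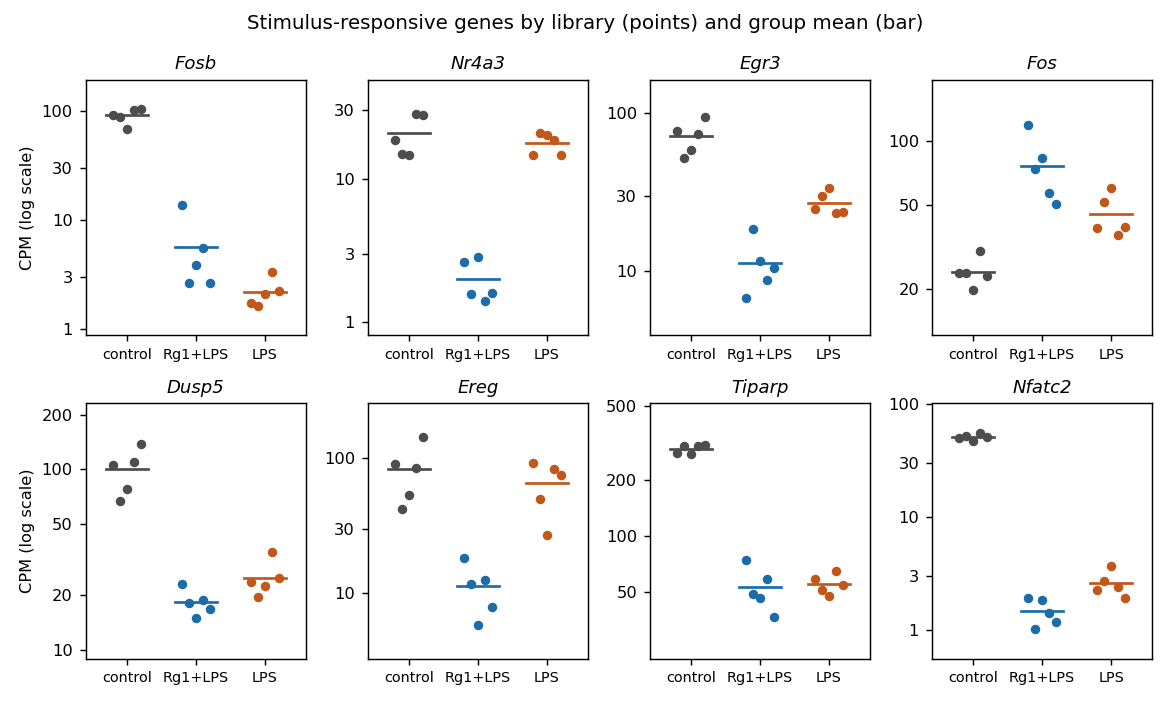
CPM on log axes of 8 genes that respond to stimuli in each library of control, Rg1 plus LPS and LPS, with points for libraries and bars for group means. Fos is the 1 gene of the 8 with Rg1 plus LPS above control; Nr4a3 and Ereg have LPS values near those of control, and the Tiparp values of Rg1 plus LPS and LPS overlap.

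Immediate early genes are known for promoters with CArG boxes, which serum response factor binds, and with cyclic AMP response elements, written TGACGTCA, which CREB binds. RefSeq promoters on GRCm38.p6, from 250 bases before to 50 after the gene start, were given for 17 of the members that fell. Searched on both strands, the CArG box, a motif known by that name, was in 2 of the 17, Srf and Egr2, against 1.54% of tested genes with a promoter, and the cyclic AMP response element in 1, Maff, against 3.38%. Those 3 promoters are shown because they carry the motifs, with the matches in capitals. The Srf promoter lies at chr17:46556113-46556412 on the minus strand and holds 2 CArG boxes; that of Egr2 lies at chr10:67537316-67537615 and that of Maff at chr15:79347270-79347569, both on the plus strand.
Srf: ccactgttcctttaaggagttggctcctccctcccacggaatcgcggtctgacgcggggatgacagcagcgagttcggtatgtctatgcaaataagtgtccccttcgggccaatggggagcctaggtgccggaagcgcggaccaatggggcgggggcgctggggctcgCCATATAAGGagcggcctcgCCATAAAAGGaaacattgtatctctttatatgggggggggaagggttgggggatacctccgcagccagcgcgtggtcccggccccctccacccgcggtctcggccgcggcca
Egr2: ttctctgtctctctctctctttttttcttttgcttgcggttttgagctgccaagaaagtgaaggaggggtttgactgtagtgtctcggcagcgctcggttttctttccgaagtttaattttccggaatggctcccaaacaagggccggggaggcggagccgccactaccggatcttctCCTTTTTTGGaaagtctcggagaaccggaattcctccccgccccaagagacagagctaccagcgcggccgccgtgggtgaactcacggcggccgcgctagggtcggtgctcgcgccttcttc
Maff: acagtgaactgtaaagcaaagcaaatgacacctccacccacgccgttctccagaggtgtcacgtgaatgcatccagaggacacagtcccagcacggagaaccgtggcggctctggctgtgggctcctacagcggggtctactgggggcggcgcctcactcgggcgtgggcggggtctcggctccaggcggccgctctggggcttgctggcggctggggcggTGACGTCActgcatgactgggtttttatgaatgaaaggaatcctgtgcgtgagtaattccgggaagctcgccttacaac
Srf, the gene of serum response factor itself, fell by 0.73 on the log2 scale (adjusted p = 0.00016), and Egr2, the zinc finger factor of Schwann cell myelination, by 1.197 (adjusted p = 0.00161). A match describes the letters in this window and shows no binding.

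The phosphatases and adaptors that switch MAP kinase signals off mostly fell as well. Of 16 genes of MAPK feedback, 11 were called lower and 3 higher, with a median log2 fold change of -0.62. Dusp5 (chr19:53529145-53541809), a nuclear phosphatase of ERK, had 105.5, 66.5, 78.3, 110.4 and 138.4 CPM in control and 23, 18.1, 14.9, 18.8 and 16.8 CPM in Rg1 plus LPS. The groups were far apart, at a log2 fold change of -2.45 ± 0.20 (adjusted p = 3.27e-07). Errfi1, a feedback inhibitor of the EGF receptor, fell by 1.28, Spry4, a Sprouty inhibitor of receptor tyrosine kinase signals, by 0.89, and Dusp14 by 0.55. Spry1 and Dusp8 rose by 1.253 and 0.43. Without Rg1 plus LPS libraries 1 and 4 the value of Dusp8 was 0.28. Dusp1, the phosphatase that glucocorticoids and stress induce, was called higher at 0.64 (adjusted p = 0.0417), but not without library 1 of Rg1 plus LPS (adjusted p = 0.122), without its library 4 (0.0953) or without any 1 of control libraries 1, 2, 3 and 4 (0.0719, 0.0966, 0.0924 and 0.0628).

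Growth factors, the ligands upstream of these kinases, showed the same direction. Of 24 tested, 16 were called lower and 2 higher, with a median log2 fold change of -0.68. The ligands of the EGF receptor were among them. Hbegf fell from 479 ± 87.0 to 213 ± 44.7 CPM and Tgfa by 1.34 on the log2 scale. Areg, amphiregulin, had 5.10 to 20.9 CPM in control and 0.124 to 2.71 CPM in Rg1 plus LPS (log2 fold change -3.43 ± 0.68, adjusted p = 0.00121), or -5.69 without Rg1 plus LPS libraries 1 and 4. Ereg, epiregulin, which was singled out after its values were seen, had 89.7, 41.8, 53, 84.1 and 142 CPM in control and 18.2, 11.7, 5.78, 12.6 and 7.94 CPM in Rg1 plus LPS, without overlap. Its mean in the LPS libraries was 64.6 ± 26.1 CPM. Fgf2 and Pdgfa, mitogens of glial cells, fell by 0.88 and 0.72, and Nrg1, the ligand of ERBB receptors, by 0.58. Vegfb rose by 0.35. The other growth factor called higher, Ccn2, lost its call without any 1 of Rg1 plus LPS libraries 2, 3 and 5 and the 5 control libraries (adjusted p 0.0531 to 0.0945). Egf itself had too few counts to be tested.

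Most genes listed for the aryl hydrocarbon receptor, a ligand-activated transcription factor, and its targets were lower in Rg1 plus LPS. Of 14 genes tested, 10 were called lower and 1 higher, with a median log2 fold change of -0.60. Tiparp (chr3:65528447-65555518), an ADP-ribosyltransferase induced by the receptor, had 280, 302, 274, 305 and 308 CPM in control and 74.5, 49.1, 46.3, 58.9 and 36.6 CPM in Rg1 plus LPS. The groups lay far apart, at a log2 fold change of -2.47 ± 0.15 (adjusted p = 9.83e-09). Cyp1a1 (chr9:57687928-57703824), the cytochrome P450 that is its classical target, fell from 74.5 ± 20.96 to 6.59 ± 5.26 CPM (change on the log2 scale -3.50 ± 0.57, adjusted p = 0.000251), and by 4.61 without Rg1 plus LPS libraries 1 and 4. Ahrr (chr13:74211118-74292331), the repressor of the receptor, fell from 15.7 ± 2.36 to 0.768 ± 0.229 CPM. The means of these genes in the LPS libraries were close by: 55.4 ± 6.58 CPM for Tiparp, 5.88 ± 4.31 CPM for Cyp1a1 and 1.00 CPM for Ahrr. Cyp1b1 and Nfe2l2 fell by 0.77 and 0.69. Nqo1 and Lpxn were not called, nor was Gsta1, a glutathione transferase whose log2 fold change of 2.48 went the other way (adjusted p = 0.0518). The number called higher was 2 without Rg1 plus LPS library 2, 3 or 5. The core of the xenobiotic response element, GCGTG, was in 5 of 8 promoters of members that fell and in 53.9% of all tested genes with a promoter.

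Genes of calcium, NFAT and cyclic AMP feedback were lower in 9 of 18 cases and higher in 2, with a median of -0.46. Nfatc1, the second NFAT factor of the list, fell from 47.4 to 61.0 CPM to 14.7 to 17.7 CPM (change on the log2 scale -1.77 ± 0.13, adjusted p = 9.43e-08). Pde4b, a phosphodiesterase of cyclic AMP, fell by 1.95 and Rcan1, the calcineurin inhibitor that NFAT induces, by 0.93. Adrb1, the beta-1 adrenergic receptor, and Pde4a rose by 0.72 and 0.52, and 4 members were higher without Rg1 plus LPS library 3 or 5. Pde4b averaged 194 CPM in the LPS libraries, 55.8 CPM in control and 14.4 CPM in Rg1 plus LPS.

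Circadian clock genes were called lower in 9 of 19 cases and higher in 2, with a median of -0.39. The repressors Bhlhe40 and Cry1 fell by 1.35 and 1.02, Cry2 by 0.70 and Nr1d1, a nuclear receptor of the clock, by 0.61. Per1 rose from 28.3 to 33.7 CPM to 45.0 to 52.5 CPM (change on the log2 scale 0.68 ± 0.08, adjusted p = 1.21e-05), and Dbp rose by 0.47. The E-box CACGTG, which the clock activators bind, was in 2 of 6 promoters of members that fell, Cry1 and Ciart, in 3 of 10 of the other members, Per1, Tef and Bhlhe41, and in 11.1% of all tested genes with a promoter. The glucocorticoid receptor gene Nr3c1 fell from 133 ± 5.90 to 71.2 ± 6.23 CPM (change on the log2 scale -0.90 ± 0.06, adjusted p = 3.37e-08). Of 19 genes of the receptor and its targets, 5 were called lower and 4 higher, with a median of -0.19. Sgk1, a kinase that glucocorticoids induce, fell by 1.21, Pdk4 by 0.95 and Klf9 by 0.77. Per1, Klf15 and Zbtb16, targets of the same receptor, rose.

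The series' title names TLR4, MyD88, NF-kB and NLRP2. Tlr4, the LPS receptor, had 30.8, 33.1, 29.4, 32.9 and 28.9 CPM in control and 18.4, 21.7, 18.7, 19.3 and 14.8 CPM in Rg1 plus LPS. The groups did not overlap, and the log2 fold change was -0.74 ± 0.14 (adjusted p = 0.000672). Cd14, the co-receptor, fell by 1.16, and Irf3 and Tab1, a transcription factor and an adaptor of TAK1 downstream of the receptor, rose by 0.72 and 0.83. Of 18 genes of TLR4 signalling 3 were lower (16.7%) and 2 higher (11.1%), with a median of -0.03. Both shares were under those of all genes, 18.1% and 18.8%. Leaving out Rg1 plus LPS library 1 gave 7 lower. Myd88, the adaptor, was not called, with 18.9 to 25.7 CPM in control and 22.98 to 25.4 CPM in Rg1 plus LPS. Among NF-kB subunits, Nfkb1 fell from 55.6 ± 1.82 to 40.7 ± 3.58 CPM (change on the log2 scale -0.45 ± 0.08, adjusted p = 0.000314) and Rel by 0.99, while Rela was not called (log2 fold change -0.15, adjusted p = 0.249).

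Genes of the I-kappa-B family, which binds NF-kB, diverged. Bcl3, an atypical member of the I-kappa-B family, had 14.7, 12.4, 13.8, 19.99 and 16.2 CPM in control and 2.73, 6.03, 6.97, 3.35 and 5.48 CPM in Rg1 plus LPS, without overlap (log2 fold change -1.65 ± 0.21, adjusted p = 3.4e-05). Nfkbiz, its relative, fell by 1.24. Nfkbia, the classical inhibitor, rose instead, from 23.02, 24.1, 26.3, 22.95 and 22.3 CPM in control to 54.7, 31.2, 29.7, 35.5 and 35.8 CPM in Rg1 plus LPS. All treated libraries were above all controls, library 1 most of all (log2 fold change 0.65 ± 0.13, adjusted p = 0.00113). Ikbke, a kinase on the same list and not a member of the family, rose by 0.51. Of the 15 listed genes of NF-kB subunits, the I-kappa-B family and kinases, 7 were lower and 2 higher, with a median of -0.15. In the LPS libraries these genes were far above both groups, with means of 691 ± 62.8 CPM for Nfkbia, 78.7 ± 10.8 CPM for Bcl3 and 322 CPM for Nfkb1.

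**Figure D3:**
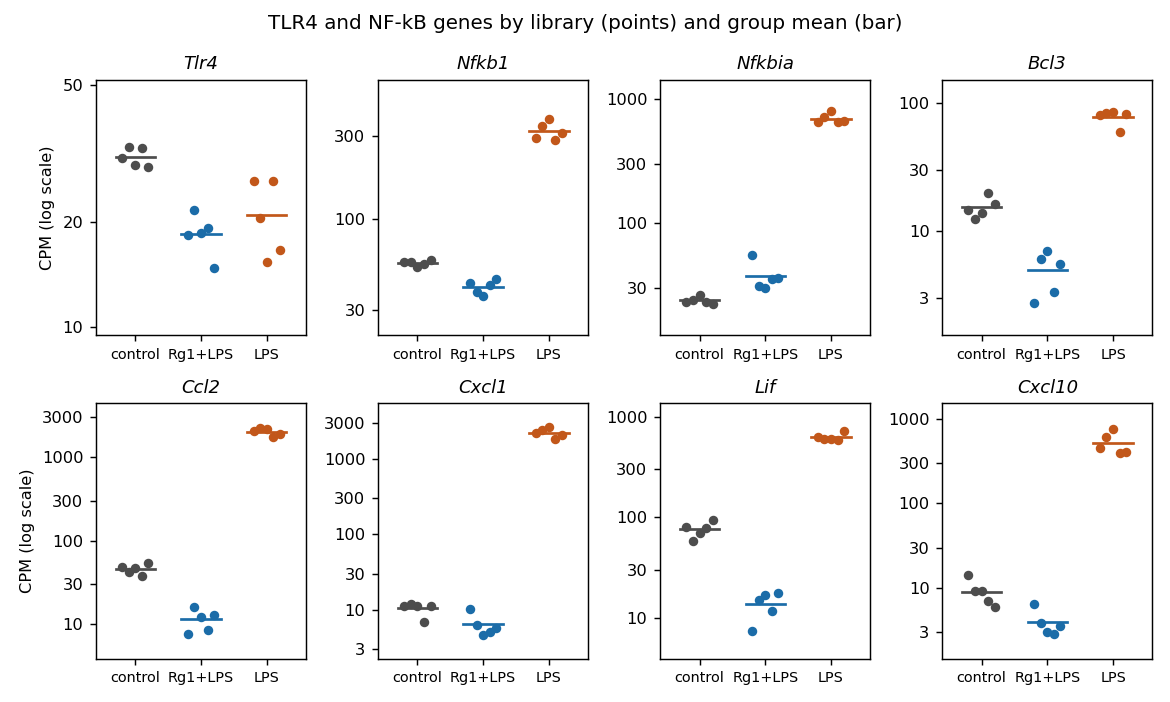
CPM on log axes of 8 genes of TLR4 and NF-kB signalling in each library, with points for libraries and bars for group means of control, Rg1 plus LPS and LPS. The Rg1 plus LPS values of Ccl2, Lif and Bcl3 lie below all control values, those of Nfkbia lie above them, and for Ccl2, Cxcl1, Lif and Cxcl10 the LPS libraries lie far above both groups.

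Several chemokines that LPS induces averaged less in Rg1 plus LPS than in untreated cultures. Ccl2, which attracts monocytes, had 48.7, 42.0, 47.7, 38.2 and 54.6 CPM in control and 7.66, 15.9, 12.1, 8.52 and 12.7 CPM in Rg1 plus LPS, against a mean of 2020 ± 200 CPM in the LPS libraries. The treated libraries lay below all controls, at a log2 fold change of -2.02 ± 0.17 (adjusted p = 2.96e-07). Cxcl1, which attracts neutrophils, had 11.2, 11.9, 11.1, 6.94 and 11.3 CPM in control and 10.1, 6.33, 4.57, 5.06 and 5.72 CPM in Rg1 plus LPS, with overlap through 1 library of each group (log2 fold change -0.72 ± 0.19, adjusted p = 0.00833), and averaged 2242 ± 307 CPM in the LPS libraries. Ccl7 and the interferon-type Cxcl10 fell by 1.42 and 1.19. Of 16 chemokines tested, 7 were called lower and 1 higher, with a median of -0.49. The 16 and the median include Cxcl3, with 0 counts in both groups, and Ccl20, with few. Both passed the filter only through the LPS libraries. The 1 higher, Ccl17, had a mean of 0.237 CPM in Rg1 plus LPS and 0.102 CPM in control (adjusted p = 0.0412), and 7 of the 10 omissions of 1 library ended that call (adjusted p 0.0534 to 0.0992). Ccl20 was detected with 2 counts in Rg1 plus LPS and 5 in control, a ratio of control to Rg1 plus LPS of 2.63 (95% exact counting interval 0.431 to 27.6, for counting error only). Ccl12, Ccl19 and Ccl22 had too few counts to be tested.

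Cytokines were lower in 4 of 17 tested cases (23.5%, against 18.1% of all genes) and higher in none (1 without control library 5), with a median of -0.51. The 17 and the median include genes with almost nothing to compare. Counts in Rg1 plus LPS and control were 0 and 1 for Il12b, 1 and 2 for Ifnb1, 3 and 3 for Csf2 and 2 and 6 for Il1a. These genes and Il1b passed the filter only through the LPS libraries. Lif, the cytokine of gp130 that drives astrocyte differentiation, had 80.3, 58.2, 69.8, 78.9 and 93.4 CPM in control and 7.46, 15.1, 17.0, 11.8 and 17.8 CPM in Rg1 plus LPS. The highest treated value lay far under the lowest control, at a log2 fold change of -2.46 ± 0.19 (adjusted p = 2.16e-07), and the LPS mean was 627 ± 51.8 CPM. Csf3 and Tnfsf11, both at most 2.34 CPM in every library of both groups, fell by 0.93 and 0.91. Il6 was called lower at very low levels, 0.224 to 0.407 CPM in control and 0 to 0.238 CPM in Rg1 plus LPS (adjusted p = 0.0098). Tnf and Il1b, the other cytokines that the study's pathway leads to, were not called. Tnf averaged 0.181 ± 0.187 CPM in Rg1 plus LPS and 0.074 ± 0.0905 CPM in control, and Il1b had 1 count in all 5 Rg1 plus LPS libraries and 3 in control. Tnfsf15, a ligand of the TNF family, fell from 15.0 to 34.8 CPM to 0.452 to 2.03 CPM (change on the log2 scale -4.32 ± 0.36, adjusted p = 4.44e-07) and averaged 43.1 ± 8.04 CPM in the LPS libraries.

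Inflammasome genes were near or under the limit of detection in part. Nlrp2, named in the title, had 4 counts in all control libraries and 4 in all Rg1 plus LPS libraries and was not tested, as were Nlrp1a, Nlrp1b, Nlrc4 and Aim2. Nlrp3 averaged 0.0288 CPM in Rg1 plus LPS and 0.128 CPM in control and was not called (adjusted p = 0.105). Without Rg1 plus LPS library 5 it was called lower, at a log2 fold change of -3.75 (adjusted p = 0.0218), as it was with DESeq2 on all libraries (adjusted p = 0.017). Pycard, the adaptor ASC, and Il18 were not called, at adjusted p of 0.299 and 0.883. Casp1 was called higher, with 4.52 to 7.05 CPM against 3.13 to 4.82 CPM (change on the log2 scale 0.47 ± 0.16, adjusted p = 0.0314), and lost that call without Rg1 plus LPS library 1, 3 or 4 or control library 1, 2 or 4 (adjusted p 0.0504 to 0.0843). Of 10 inflammasome genes tested, 3 were called higher, Casp1, Txnip and P2rx7, a receptor of extracellular ATP, and 1 lower, with a median log2 fold change of -0.005. None was called higher without control library 4 (adjusted p = 0.0694, 0.0557 and 0.0569), and 1 was without control library 1 or Rg1 plus LPS library 4. P2rx7 was also not called with a replicate block (adjusted p = 0.0569). Txnip, a thioredoxin inhibitor, had a log2 fold change of 0.59 and was not called without Rg1 plus LPS library 5 (adjusted p = 0.0564) either. Nek7, a partner of NLRP3, fell by 0.27. Il1b, also among the 10, had 1 count in Rg1 plus LPS and 3 in control. Of the 12 study genes tested, 3 were thus lower and 2 higher, the latter 1 wherever Casp1 lost its call.

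Genes that hold inflammatory signals back were lower in 5 of 16 cases and called higher in 2, Zfp36 and Pdlim2, with a median of -0.12. Neither of the 2 was called without control library 2 (adjusted p = 0.0512 and 0.0752) or control library 3 (0.0597 and 0.0508), and 1 was called without control library 4 or Rg1 plus LPS library 2 or 5. Pdlim2 also lost its call without control library 1 or 5 or Rg1 plus LPS library 4 (adjusted p = 0.0596, 0.0507 and 0.0512). With the gene length trend removed, neither was called (adjusted p = 0.15 and 0.209). Tnfaip3, the deubiquitinase A20, fell from 7.79 to 3.23 CPM on average (log2 fold change -1.27 ± 0.16, adjusted p = 2.5e-05), Trib1 by 1.09 and Otud1 by 0.68. Of 11 enzymes of nitric oxide, prostaglandin and itaconate synthesis, 3 were lower and none higher. The 11 include Nos2, with 1 count in Rg1 plus LPS and 2 in control. Gch1, which makes the cofactor of nitric oxide synthase, fell by 1.34 and Ptgs1, a cyclooxygenase, by 0.91. Of 7 leukocyte adhesion genes, 2 were lower, Sele and Alcam. Sele, E-selectin, had 0.962 to 2.79 CPM in control and 0.0238 to 0.193 CPM in Rg1 plus LPS, a log2 fold change of -4.79, or -5.63 without Rg1 plus LPS library 1, and its LPS mean was 117 CPM.

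Of 33 interferon-stimulated genes tested, 4 were called lower and none higher, a share of 12.1% against 18.1% of all genes, and their median log2 fold change was -0.14. Without Rg1 plus LPS libraries 1 and 4, 1 was lower and 3 were higher. Irf1, a transcription factor that interferon and NF-kB induce, fell by 1.42 (adjusted p = 6.19e-05), and Gbp5, a guanylate-binding protein, by 1.48. Without Rg1 plus LPS libraries 1 and 4 Gbp5 was not called (adjusted p = 0.12), nor was Erap1, an aminopeptidase that trims antigens (adjusted p = 0.0611). Antigen presentation genes were called lower in 1 of 16 cases, Erap1, at a median of -0.01, and 1 was higher without Rg1 plus LPS library 1. Complement genes were called lower in 6 of 17 cases and higher in 1, with a median of -0.53. The number lower was 1 without control library 4, where C1qa, C5ar1, C1s1 and C1qc were not called (adjusted p = 0.0751, 0.0857, 0.0637 and 0.163), and 3 without Rg1 plus LPS library 1 or library 4. It was 1 without both of these. The 1 higher, Hc, lost its call in 7 of the 10 omissions of 1 library (adjusted p 0.064 to 0.115). C1qa, made by microglia, had a log2 fold change of -1.88 with all libraries and of -1.18 without control library 4.

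Astrocyte genes were described by several lists. Of 28 genes of astrocyte identity and transport, 7 were called lower and 1 higher (2 without Rg1 plus LPS library 1), at a median of -0.15, and without Rg1 plus LPS libraries 1 and 4 the number lower was 4. Gja1, the gap junction protein connexin 43, had 857, 897, 874, 1035 and 898 CPM in control and 348, 594, 668, 391 and 490 CPM in Rg1 plus LPS. The treated libraries were all lower, libraries 1 and 4 most of all, at a log2 fold change of -0.87 ± 0.16 (adjusted p = 0.00072). Slc1a3, the glutamate transporter GLAST, fell by 0.53, Sox9, the transcription factor of glial fate, by 0.65 and Slc4a4, a bicarbonate transporter, by 0.62, or by 0.38 without those 2 libraries. Id3, an inhibitor of helix-loop-helix factors, rose from 214 to 241 CPM to 271 to 509 CPM. Gfap was not called, at 3167 ± 540 CPM in Rg1 plus LPS and 4017 ± 556 CPM in control (adjusted p = 0.15), nor were Slc1a2 (adjusted p = 0.0521), Aldh1l1, S100b and Aldoc.

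Lists of reactive states differed in their counts. Of 13 genes shared by reactive astrocytes, 3 were lower (23.1%) and 1 higher (7.69%), against 18.1% and 18.8% of all genes, with a median of -0.28. Cd44, the hyaluronan receptor, fell by 0.78 and Aspg rose by 0.67. Of 11 genes of the A1 state, described after LPS, 1 was called lower, Gbp2, and none higher. Gbp2 was not called without Rg1 plus LPS library 4 (adjusted p = 0.0606), control library 4 (0.0572) or a filter on low counts (0.0629), and 2 of the 11 were lower without Rg1 plus LPS library 5. Of 12 genes of the A2 state, described after ischemia, 8 were lower and none higher, with a median of -0.74. Stat3, the transcription factor of gp130 cytokines, fell from 381 to 434 CPM to 207 to 252 CPM (change on the log2 scale -0.79 ± 0.08, adjusted p = 2.45e-06), Cd109 by 0.85 and Emp1, a tetraspan membrane protein, by 1.14. Cd14, which belongs to the A2 list as well as to TLR4 signalling, fell with them.

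Of 26 cholesterol synthesis and uptake genes, 16 were called lower and none higher, with a median log2 fold change of -0.33. Without Rg1 plus LPS library 1, 2 were called higher, and 1 was without its library 3 or control library 1 or 5. Stard4, a sterol carrier, fell by 1.24, Hsd17b7 by 0.92 and Insig1, the sterol sensor partner that holds SREBP back, by 0.83. Members not called included Fdps, Mvk and Dhcr7. The sterol regulatory element TCACNCCAC, which SREBP binds, was in 1 of 10 promoters of members that fell and in 1.44% of all tested genes with a promoter. That promoter, of the synthase gene Hmgcs1, is shown with the element in capitals and lies at chr13:119690101-119690400 on the plus strand.
Hmgcs1: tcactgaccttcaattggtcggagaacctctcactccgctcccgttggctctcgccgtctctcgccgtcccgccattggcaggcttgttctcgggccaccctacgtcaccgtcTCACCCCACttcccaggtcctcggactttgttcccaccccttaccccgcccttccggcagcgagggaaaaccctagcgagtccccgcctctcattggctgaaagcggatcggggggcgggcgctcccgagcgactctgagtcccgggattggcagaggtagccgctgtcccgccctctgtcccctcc
Hmgcs1 fell from 555 CPM on average to 317 CPM (change on the log2 scale -0.81, adjusted p = 5.59e-06).

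Fatty acid synthesis and desaturation genes were lower in 8 of 13 cases and higher in none, with a median of -0.22. The number was 5 without control library 5. Fasn, fatty acid synthase, ranged from 317 to 364 CPM in control and from 164 to 214 CPM in Rg1 plus LPS (log2 fold change -0.83 ± 0.08, adjusted p = 1.16e-06), Lpin1, a phosphatidate phosphatase, by 1.02, and Scd1, a desaturase, by 0.60. Of 12 genes of sterol efflux and the receptor LXR, 4 were lower and 3 higher, Nr1h3, Nr1h2 and Abcg4. The number higher was 1 without control library 1, where Nr1h2 and Abcg4 were not called (adjusted p = 0.0525 and 0.0576), and 1 without Rg1 plus LPS libraries 1 and 4. Nr1h2 also lost its call without Rg1 plus LPS library 1 or 4 or control library 2, 4 or 5 (adjusted p 0.0517 to 0.0625). Abcg4 also lost its call without Rg1 plus LPS library 5 (adjusted p = 0.0521) or control library 3 (0.074). Abca1, the exporter of cholesterol that LXR induces, fell from 347 to 149 CPM on average (log2 fold change -1.22 ± 0.20, adjusted p = 0.000215), and Nr1h3, the gene of LXR-alpha, rose by 0.55, a call lost without Rg1 plus LPS libraries 1 and 4 (adjusted p = 0.0551).

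Extracellular matrix genes were lower in 13 of 29 cases and higher in 1 (none without control library 3), with a median of -0.38. Lamc1, a laminin chain, fell from 281 to 296 CPM to 132 to 172 CPM (change on the log2 scale -0.95 ± 0.07, adjusted p = 6.01e-08), Fn1, fibronectin, by 0.66, and Col4a1 and Col4a2, the basement membrane collagens, by 0.57 and 0.59. Axon guidance genes were lower in 15 of 27 cases and higher in none, with a median of -0.45. Sema3d, a secreted semaphorin, fell by 1.07, Unc5b, a netrin receptor, by 0.90, Epha4, an ephrin receptor of astrocytes, by 0.74 and Robo2 by 0.69. Targets of YAP and TGF-beta were lower in 8 of 14 cases and higher in 2, with a median of -0.38. Wwtr1, the gene of TAZ, fell by 0.69 and Crim1 by 0.77, while Ccn2 kept its call in 2 of the 10 omissions of 1 library. Ccn1, a matricellular target of YAP, rose from 497 to 633 CPM to 733 to 1097 CPM (change on the log2 scale 0.76 ± 0.14, adjusted p = 0.000422).

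Among ion channels 9 of 24 were called lower and 2 higher, at a median of -0.36. The number lower was 3 without Rg1 plus LPS library 4 or 5 or control library 2 or 4, and 5 without Rg1 plus LPS library 1 or control library 3; the number higher was 4 without Rg1 plus LPS library 1. Cacna1c, a subunit of L-type calcium channels, fell by 0.78. Notch genes were lower in 3 of 12 cases and higher in 2: Jag1, a ligand, fell by 0.91, Rbpj, the DNA-binding partner, by 0.66, and Hey1, a target, rose by 0.56. The number lower was 5 without Rg1 plus LPS library 2 or 5, and the number higher 4 without its library 1. Of 15 BMP and ID genes, 3 were lower (20%) and 2 higher (13.3%), against 18.1% and 18.8% of all genes. Smad6, an inhibitory SMAD, rose by 0.84, and 4 of the list were higher without Rg1 plus LPS library 1 or control library 4. Chromatin and DNA methylation genes were lower in 8 of 15 cases and higher in 1, with a median of -0.31. Tet3, a dioxygenase of 5-methylcytosine, had 41.7, 41.5, 39.5, 42.5 and 40.6 CPM in control and 8.77, 7.32, 9.71, 8.81 and 8.01 CPM in Rg1 plus LPS. Both groups were tight and did not overlap, at a log2 fold change of -2.27 ± 0.08 (adjusted p = 1.37e-11) and an LPS mean of 14.3 ± 0.964 CPM. Kdm6b, a histone H3 demethylase, fell by 0.93 and Ezh2, its opposing methyltransferase, rose by 0.47.

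**Figure D4:**
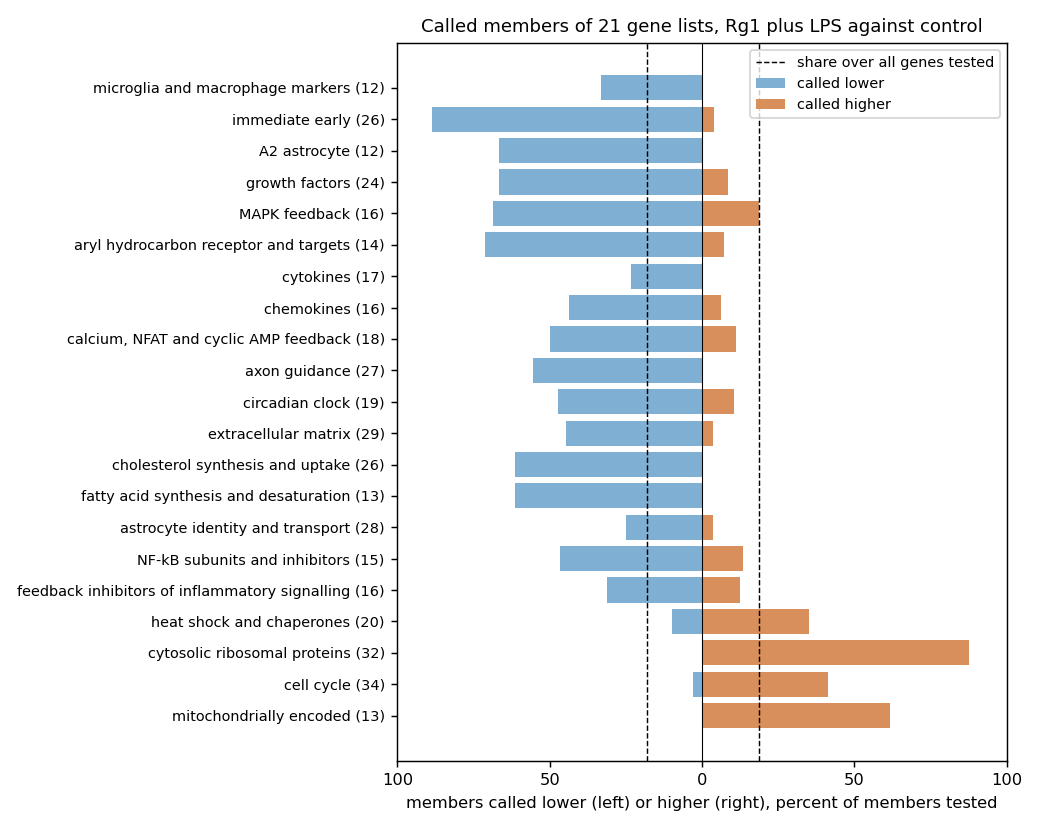
Percent of tested members called lower (left) or higher (right) in Rg1 plus LPS against control for 21 gene lists, with the number tested in parentheses and dashed lines at the shares over all genes tested, 18.1% lower and 18.8% higher. The immediate early list has the longest bar to the left, 88.5%, and the cytosolic ribosomal proteins have the longest to the right, 87.5%.

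Fewer groups were higher. Cytosolic ribosomal protein genes, which build the translation machinery, were called higher in 28 of 32 cases and lower in none, with a median log2 fold change of 0.32. Rps15 had 433, 408, 418, 432 and 409 CPM in control and 527, 604, 557, 639 and 692 CPM in Rg1 plus LPS, without overlap (log2 fold change 0.52 ± 0.08, adjusted p = 6.46e-05). These are short transcripts, and with the trend of values on gene length removed from each library 7 of the 32 were called higher. Mitochondrially encoded genes were higher in 8 of 13 cases and lower in none, with a median of 0.59, and 5 were higher with the length trend removed. Rg1 plus LPS library 5 lacked the increase as a list. Its mean log2 CPM of these genes was 7.114, against 8.009 to 8.495 in libraries 1 to 4 and 7.416 to 7.634 in control. CYTB, cytochrome b, rose from 4523 to 5263 CPM to 6417 to 9678 CPM (change on the log2 scale 0.71 ± 0.11, adjusted p = 9.6e-05) and ND4, of complex I, by 0.71. Nuclear-encoded respiratory chain genes were higher in 13 of 36 cases and lower in 4, with a median of 0.12: Ndufa2 rose by 0.46 and Uqcrq by 0.32, while Sdha and Ndufs1 fell by 0.30 and 0.25. Atp5j and Cox4i1 were also called higher, but not with the length trend removed (adjusted p = 0.157 and 0.914). The number lower was 2 without any 1 of Rg1 plus LPS libraries 1, 2 and 4 or control libraries 1 to 4. Of 14 genes of mitochondrial transcription and biogenesis, 4 were higher and 1 lower, with Polrmt, the mitochondrial RNA polymerase, up by 0.51 and the coactivator Pprc1 down by 0.80; 2 were lower without Rg1 plus LPS library 1 or control library 3.

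Cell cycle genes were higher in 14 of 34 cases and lower in 1, with a median of 0.49. Aurka, a mitotic kinase, had 9.06, 13.3, 6.65, 8.99 and 13.6 CPM in Rg1 plus LPS and 1.96 to 5.04 CPM in control (log2 fold change 1.38 ± 0.33, adjusted p = 0.00435). Cdc20, an activator of the anaphase-promoting complex, rose by 1.03, and Birc5, survivin, and Bub1b, of the spindle checkpoint, by 1.17 each. Ccnd2, cyclin D2, fell by 0.44 (2 members were lower without Rg1 plus LPS library 3), a call lost without Rg1 plus LPS libraries 1 and 4 (adjusted p = 0.0591). The number called higher was 6 without Rg1 plus LPS library 2 and 8 without library 5 or without control library 2, 4 or 5.

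Stress genes differed among the treated libraries. Of 20 heat shock and chaperone genes, 7 were higher and 2 lower, with a median of 0.28, and 4 were higher without Rg1 plus LPS libraries 1 and 4. Only 1 was lower without Rg1 plus LPS library 2 or 5 or control library 5. Hspa1b, an inducible HSP70 singled out after its values were seen, had 105, 15.6, 17.1, 51.1 and 11.7 CPM in Rg1 plus LPS and 9.89 to 14.0 CPM in control. It was high in libraries 1 and 4 and near control in the other 3, so that its log2 fold change of 1.77 ± 0.49 (adjusted p = 0.0108) became 1.02 without library 1 and 0.34 without both (adjusted p = 0.217). Hspa8, a constitutive HSP70, rose in all 5 libraries, from 760 to 796 CPM to 1034 to 1536 CPM (change on the log2 scale 0.62 ± 0.10, adjusted p = 0.000135), and Hsf1, the heat shock factor, rose by 0.74. The mean log2 CPM of the list was 7.77 and 7.45 in libraries 1 and 4, 6.93 to 7.01 in libraries 2, 3 and 5 and 6.89 to 7.09 in control. NRF2 targets and metallothioneins had means of 9.28 and 9.10 in libraries 1 and 4 and 8.45 to 8.54 in the other 3. Fibroblast and meningeal markers were lower in libraries 1 and 4, at 7.15 and 7.61 against 8.36 to 8.53, as were interferon-stimulated genes, at 3.20 and 3.47 against 4.07 to 4.40. What part these 2 libraries' state has in the group differences was not tested beyond leaving them out.

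**Figure D5:**
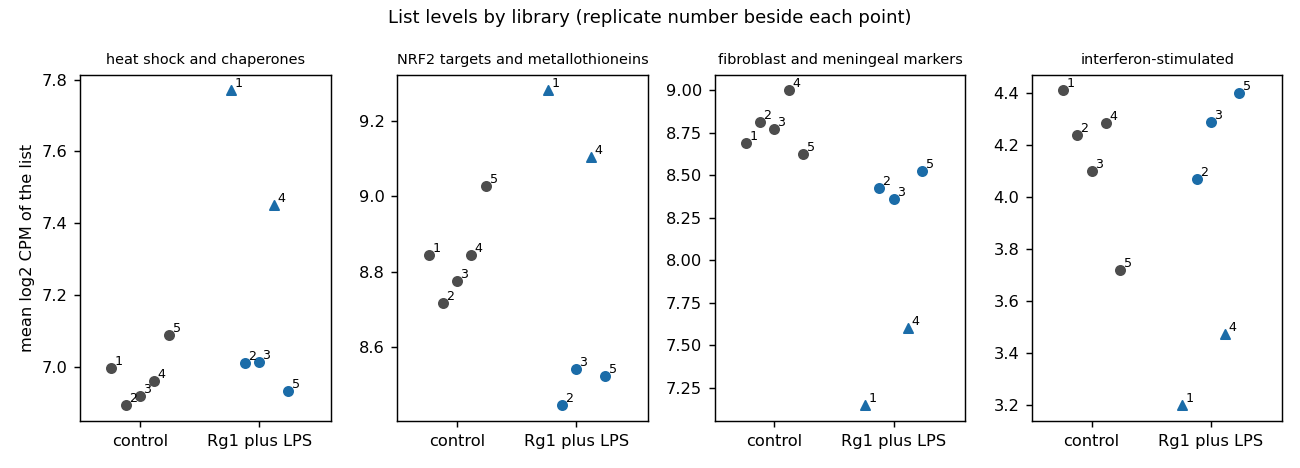
Mean log2 CPM of 4 gene lists (y axes with different ranges) in each control and Rg1 plus LPS library, numbered by replicate, with triangles for Rg1 plus LPS libraries 1 and 4. Those 2 libraries lie above the other 3 of their group for heat shock and NRF2 genes and below them for fibroblast and interferon-stimulated genes.

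Of the 16 NRF2 targets and metallothioneins, 1 was called higher, Keap1, and 1 lower, Nfe2l2, the gene of NRF2 itself, which fell from 338 to 382 CPM to 203 to 241 CPM. There were 3 lower without Rg1 plus LPS library 1, and 7 without libraries 1 and 4. Genes of ATF4 and the unfolded protein response were lower in 6 of 26 cases (23.1%) and higher in 5 (19.2%), with a median of 0.05. The shares over all genes were 18.1% and 18.8%. The number lower was 3 without control library 1, and the number higher 2 without control library 3 and 3 without control library 2 or 5 or Rg1 plus LPS library 5. Slc7a5, an amino acid transporter, fell by 0.59, Vldlr by 0.71 and Mthfd2 by 0.68. Creld2, Manf, Atf4 and Sesn2 were among those called higher. None of them was called with the gene length trend removed (adjusted p = 0.445, 0.605, 0.142 and 0.169). Atf4 also lost its call without Rg1 plus LPS library 1 or 4 or control library 2 or 3 (adjusted p 0.0563 to 0.065). Sesn2 lost its call without Rg1 plus LPS library 1 or 5 or control library 1, 3 or 5 (adjusted p 0.0523 to 0.092). Of 25 genes of glycolysis and hypoxia, 10 were lower and 2 higher (1 without Rg1 plus LPS library 5), with a median of -0.04. Hk2, the inducible hexokinase, fell from 81.6 to 103.3 CPM to 21.2 to 31.4 CPM (change on the log2 scale -1.85 ± 0.11, adjusted p = 6.48e-09), Egln3 by 1.30 and Pfkfb3 by 0.74, while Adm, adrenomedullin, rose by 1.17. Targets of p53 were higher in 9 of 18 cases and lower in 4, with a median of 0.12. Plk2 and Gtse1 rose by 0.73 and 0.67 and Btg2 by 0.54, while Pmaip1, the proapoptotic NOXA, fell by 1.16 and Eda2r by 0.84.

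Markers of other cell types were measured because primary astrocyte cultures can hold other cells. In bulk RNA, fewer cells of a type and less RNA per cell cannot be told apart. All 12 microglia and macrophage markers were detected at a summed 43.8 to 72.0 CPM in Rg1 plus LPS and 48.6 to 114 CPM in control, where library 4 was the highest. Of the 12, 4 were called lower and none higher, and 2 without control library 4. Itgam, the integrin CD11b, had 1.81, 1.33, 1.79, 4.39 and 1.51 CPM in control and 0.459, 0.620, 0.791, 0.612 and 0.262 CPM in Rg1 plus LPS, without overlap (log2 fold change -1.97 ± 0.43, adjusted p = 0.00215). Csf1r fell by 1.85, or by 1.05 without control library 4. The part of these cells in the decreases of C1qa, Lyz2 and other myeloid transcripts was not tested.

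Of 6 neuron markers tested, Nefm and Nefl were lower and Tubb3 higher by 0.46; 2 were higher without Rg1 plus LPS library 1. Nefm had 133, 71.0, 95.6, 140 and 159 CPM in control and 13.0, 11.7, 9.20, 10.5 and 10.7 CPM in Rg1 plus LPS, far apart. Rbfox3 and Snap25, which mark mature neurons, had 2 and 1 counts in all control libraries and 3 and 11 in all Rg1 plus LPS libraries, so that these defining transcripts were at or near 0. The 6 tested neuron markers summed to 482 to 696 CPM in Rg1 plus LPS and 662 to 785 CPM in control. Of 6 oligodendrocyte lineage markers, Pdgfra and Cspg4 were lower by 1.81 and 0.81 and Olig2 and Olig1 higher by 0.43 and 0.30. Pdgfra was also the 1 of 6 fibroblast and meningeal markers called (3 without Rg1 plus LPS library 3), and Cspg4 the 1 of 4 mural markers. Of 4 endothelial markers tested, 3 were lower, among them Flt1, a VEGF receptor, by 1.76 and Cdh5 by 0.47, while Cldn5 had 0 counts in all control libraries and 2 in all Rg1 plus LPS libraries, and Pecam1 12 and 36, too few to be tested. The fibroblast and meningeal markers summed to 2009 and 2826 CPM in Rg1 plus LPS libraries 1 and 4, to 4386 to 6193 CPM in the other 3, and to 4229 to 5618 CPM in control. The tested endothelial markers summed to 92.3 to 108.7 CPM and 131 to 158 CPM, the mural markers to 1000 to 2039 CPM and 1431 to 2162 CPM, and the oligodendrocyte lineage markers to 321 to 401 CPM and 313 to 386 CPM, in Rg1 plus LPS and control respectively. Of 3 ependymal markers, Dnah5 was lower by 0.87, a call lost without Rg1 plus LPS libraries 1 and 4 (adjusted p = 0.0942). What part these cells have in the other differences was not tested. Of the 9 astrocyte markers, 4 were lower and none higher (1 without Rg1 plus LPS library 1), with summed levels of 6281 to 9855 CPM in Rg1 plus LPS and 8893 to 11370 CPM in control.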

How the data were processed

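Polyadenylated RNA of primary mouse astrocytes was measured in 15 libraries, of which 10 were compared. Per the labels' protocols, TRIzol was used for extraction and the VAHTS Universal V6 kit for library construction, and OE Biotech sequenced. The builds GRCm38 and mm10 are named in the submitters' processing notes; the aligner, counter, annotation and strandedness were not given in the sources used here. The authors deposited raw counts for 25748 gene symbols per library, and FPKM values, which matched count over gene length and total within 7.22e-10 of the value. Tests rest on the counts, since 37 symbols were damaged in every FPKM table.

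The analysis used edgeR 4.0.16 in R 4.3.3: filterByExpr with the groups, TMM scaling, 1 robust quasi-likelihood fit over all 15 libraries with group as the term, a two-sided F-test of Rg1 plus LPS minus control, and Benjamini-Hochberg adjustment over 15362 genes. The filter took in the LPS libraries too, so a gene with counts mainly there was tested. The SE is the log2 fold change over the root of F. List levels are means of log2 CPM with a prior count of 2. The script was tested on simulated data with known changes.

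Members and 51 gene lists were chosen with earlier results of these data known. Of 847 list symbols 842 were found, 1 by a synonym (Hc for C5), and 42 members had too few counts. Named are the 15 highest and 15 lowest called genes at 5 CPM or more without overlap, the 8 most abundant by FPKM changed at least 2-fold, up to 4 called members per list and direction, and 13 study genes; others are marked. Lists are described by counts and medians, with no set test. No 2 libraries were alike within sampling noise. Replicate numbers were not used to pair libraries. Alternatives were other scalings, DESeq2 1.42.0, limma 3.58.1 voom, no filter, fewer libraries, a replicate block, and removal of the trend on gene length (lowess span 0.3). Some results are not reported here.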

Additional observations from a re-analysis of the deposited data

Results flagged for a closer look

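Values far from the other 4 libraries of their group were looked for in 68 features, that is 136 groups of 5, and 14 were found. For normally distributed values chance alone flags about 1 group in 20. That rate does not hold for genes with few counts. In the Rg1 plus LPS group, library 1 was high for Fosb (13.8 CPM, others 2.62 to 5.59), Nfkbia (54.7 CPM, others 29.7 to 35.8) and Tnf (0.507 CPM, others 0.0532 to 0.149). Library 3 was low for Ahrr (0.371 CPM, others 0.798 to 0.943) and Emp1 (201 CPM, others 269 to 296). Nlrp3 was highest in library 5 (0.119 CPM, others at most 0.0248), at a few counts. Il1b had 1 count in the group, in library 4 (0.0266 CPM), and a single count always leads to a flag. In the control group, library 4 was high for Lyz2 (331 CPM, others 82.7 to 104.5), Itgam (4.39 CPM, others 1.33 to 1.81), Gadd45g (49.7 CPM, others 33.1 to 36.6), Gja1 (1035 CPM, others 857 to 898) and Tnf (0.234 CPM, others at most 0.0561), and low for Cxcl1 (6.94 CPM, others 11.1 to 11.9). Control library 5 was high for Hmgcs1 (603 CPM, others 538 to 549.6). Of the 14 values, 6 belong to control library 4.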

How the results depend on the processing

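Of 256 named genes tested, 249 were called and 194 of these kept their call in every alternative. The number of genes changed, Rg1 plus LPS against control, lay between 4739 and 6116 over the alternatives with all libraries, and between 4903 and 5836 when 1 library was left out; that of genes changed at least 2-fold lay between 705 and 847 when 1 library was left out. Of the 5671 calls, 3842 remained with the gene length trend removed. Some list counts moved. Fatty acid genes called lower went from 8 to 5 with library-size scaling. Microglia markers called lower went from 4 to 2 with limma voom, with no filter, and without Rg1 plus LPS libraries 1 and 4, a choice made after seeing the data. Cell cycle genes called higher went from 14 to 8 with no filter. With the length trend removed, mitochondrially encoded genes called higher went from 8 to 5 and ribosomal protein genes from 28 to 7. Without libraries 1 and 4, astrocyte identity genes called lower went from 7 to 4 and heat shock genes called higher from 7 to 4. Leaving out 1 library gave 5 to 8 fatty acid genes (5 without control library 5), 6 to 15 cell cycle genes (6 without Rg1 plus LPS library 2) and 2 to 6 microglia markers (2 without control library 4). For these moves the cause was not tested, except that leaving out libraries leaves fewer samples. A few small values changed sign. Manf went from 0.207 to -0.039 and Myd88 from 0.065 to -0.072 with the length trend removed. Myd88 ranged from -0.001 to 0.112 and Il18 from -0.089 to 0.051 when 1 library was left out, and Il18 was 0.043 with library-size scaling and 0.069 without libraries 1 and 4, against -0.024 in all. With a replicate block, 6027 genes were called, 5491 of them among the 5671. Same-numbered libraries had correlations of deviations of 0.077, 0.136, 0.071, -0.118 and -0.218, and only Rg1 plus LPS library 2 correlated best with its own number. The deviations are from means of only 5 libraries, so these values cannot decide whether same-numbered libraries were paired. Depth limits Nlrp2, Nlrp3, Tnf and Il1b, which had few counts in both groups.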
